A study of Mus musculus with 4 samples.

Results

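The respiratory chain genes were examined in a single-cell RNA measurement of the mouse retina, as 109 of the 27999 features in the table. They were chosen by symbol alone, from the prefixes Nduf, Uqcr, Sdh, Cox4, Cox5, Cox6, Cox7, Cox8, Atp5, mt-Nd, mt-Co, mt-Cytb and mt-Atp. Of these genes, 96 are encoded in the nucleus and 13 in the mitochondrial genome, and the 13 are all of the mitochondrial genes in the table. Retinas came from C57BL/6 mice aged 3 months that carry a GFP reporter for Brn3b, the transcription factor encoded by Pou4f2. The cells were sorted for GFP and read with a droplet method that captures the 3′ ends of polyadenylated RNA. The labels list 4 retinas in 1 group, but all barcodes stand in 1 table with 1 suffix and none can be tied to a retina. The table is therefore 1 pooled sample without replicates: no difference below has a replicate check, and each interval is a 95% interval that covers counting error only.

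The respiratory chain passes electrons from NADH and succinate through complexes I to IV to oxygen, pumps protons across the inner mitochondrial membrane, and drives ATP synthase (complex V). Every subunit of complex II is encoded in the nucleus, whereas complexes I, III, IV and V each combine nuclear subunits with a few made inside the mitochondrion from its own genome. Retinal ganglion cells (RGCs), whose axons form the optic nerve, are known for a high energy demand and for their loss in diseases caused by mutations of mitochondrial complex I genes.

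The table held 31361961 unique molecular identifiers (UMIs, each standing for 1 captured RNA molecule) in 3237 barcodes, with 3198 to 53709 per barcode and a median of 7674. The labels call all cells retinal ganglion cells, but the markers showed several cell types. Barcodes were sorted into 6 classes by minimum UMIs of a few marker genes, with no limit on the mitochondrial share: 934 RGC, 448 horizontal, 696 bipolar, 120 cone, 247 Müller glia and 150 microglia barcodes. A further 612 barcodes met no rule, and 30 that met more than 1 rule were left out of the classes. All marker genes that the rules had not used were highest in their own class, among them 6 of 6 for RGCs and 5 of 5 for Müller glia. The 6 RGC markers summed to 8801 UMIs per 1000000 (CPM, counts per 1000000 UMIs of the class) in RGC barcodes and to between 284 and 887 CPM in the other classes. Rod genes summed to 667 CPM in RGC, 725 in horizontal, 2598 in bipolar, 2019 in Müller glia, 2401 in microglia and 16050 CPM in cone barcodes. Median depth was 15807.5 UMIs in RGC barcodes, against 11066 in horizontal, 4242 in bipolar, 3770.5 in cone, 4650 in Müller glia and 3766.5 in microglia barcodes.

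RGC barcodes held more UMIs of nuclear than of mitochondrial respiratory chain genes, and the other 5 classes held fewer. The ratio of the summed nuclear to the summed mitochondrial UMIs was 1.13 (interval 1.125 to 1.133) in RGC barcodes. The same ratio was 0.619 in horizontal, 0.455 in bipolar, 0.604 in cone, 0.406 in Müller glia and 0.414 in microglia barcodes. A UMI counts a captured 3′ end and is not divided by gene length, so this ratio is read between classes and not as a molar ratio of nuclear to mitochondrial messages. Relative to the other class, the RGC ratio was 1.83-fold higher than in horizontal, 2.48-fold higher than in bipolar, 1.87-fold higher than in cone and 2.78-fold higher than in Müller glia barcodes.

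Against the other neurons the difference lay mainly in the mitochondrial UMIs. Mitochondrially encoded genes took 4.08% of all UMIs in RGC barcodes, against 7.21% in horizontal, 10.6% in bipolar, 8.35% in cone and 7.16% in Müller glia barcodes. Microglia barcodes, at 4.12%, were close to RGC barcodes in this sum. Their median share across barcodes was lower, at 2.36%, against 3.95% in RGC barcodes. The 96 nuclear genes took 4.61% of UMIs in RGC barcodes, against 4.46% in horizontal, 4.84% in bipolar and 5.04% in cone barcodes, a much narrower range. Müller glia (2.91%) and microglia (1.71%) stood below the neurons. Counted over the UMIs that are not mitochondrial, the nuclear share was 4.80% in RGC and 4.81% in horizontal barcodes. The small difference between those classes over all UMIs was thus no longer seen. Without mitochondrial UMIs the nuclear share was 5.41% in bipolar, 5.50% in cone, 3.13% in Müller glia and 1.78% in microglia barcodes. Malat1, a long RNA of the nucleus, also differed between classes, with 22491 CPM in RGC, against 82574 in horizontal, 22801 in bipolar, 24283 in cone, 60644 in Müller glia and 21222 CPM in microglia barcodes, and its part in these shares was not tested.

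**Figure D1:**
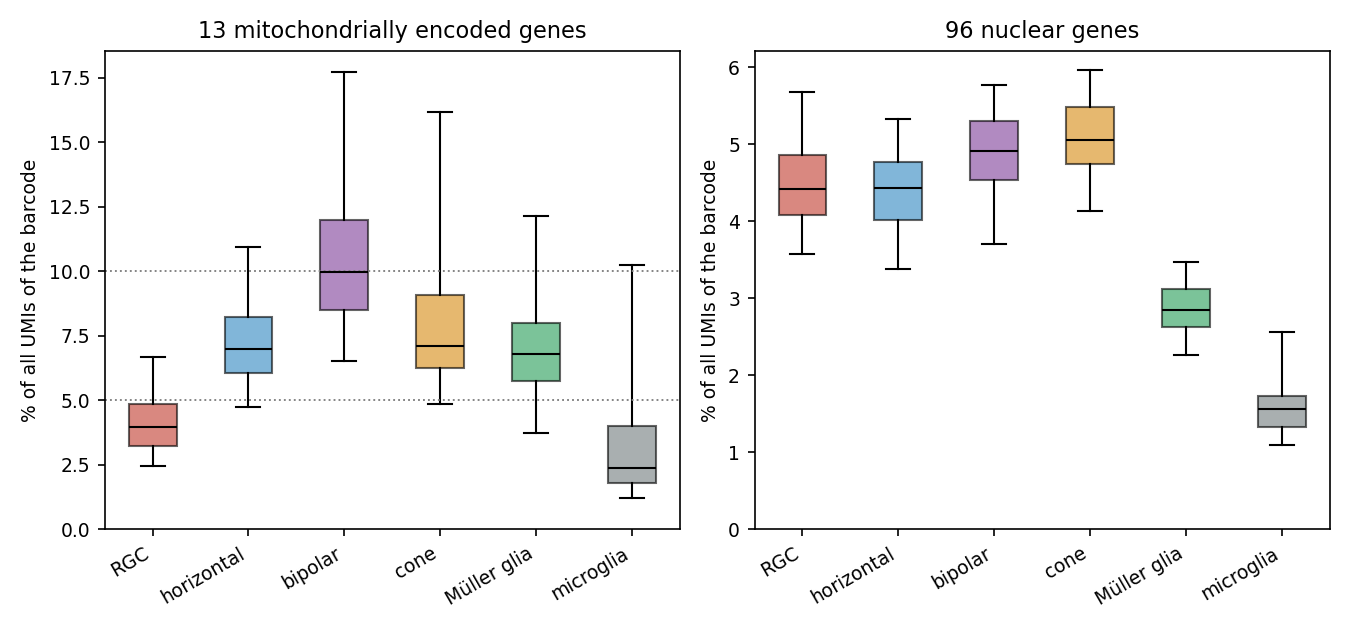
Share of all UMIs of a barcode that came from the 13 mitochondrially encoded genes (left) and the 96 nuclear respiratory chain genes (right), in percent, by class. Boxes give the quartiles with the median as a line, whiskers run from the 5th to the 95th percentile of barcodes, and dotted lines mark shares of 5% and 10%. On the left the RGC box lies lowest of the 5 neuronal and Müller glia classes, with a median of 3.95%. The microglia median there is lower still, at 2.36%. On the right the RGC median of 4.42% lies just below that of horizontal barcodes (4.44%). Bipolar (4.91%) and cone barcodes (5.06%) lie higher.

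Across single barcodes RGCs again had the highest ratio, but the order of the other classes was not that of the sums. The nuclear-to-mitochondrial ratio had quartiles of 0.901 and 1.44 around a median of 1.12 across RGC barcodes, against 0.523 and 0.762 around 0.623 across horizontal barcodes. The median was 0.497 across bipolar, 0.703 across cone, 0.429 across Müller glia and 0.657 across microglia barcodes. Nuclear UMIs outnumbered mitochondrial ones in 612 RGC barcodes (65.5%), against 28 horizontal (6.25%), 6 bipolar (0.862%), 9 cone (7.5%), 3 Müller glia (1.21%) and 30 microglia barcodes (20%). The classes overlapped: 12.7% of microglia, 3.35% of horizontal, 3.33% of cone and 0.405% of Müller glia barcodes lay above the RGC median, and no bipolar barcode did.

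**Figure D2:**
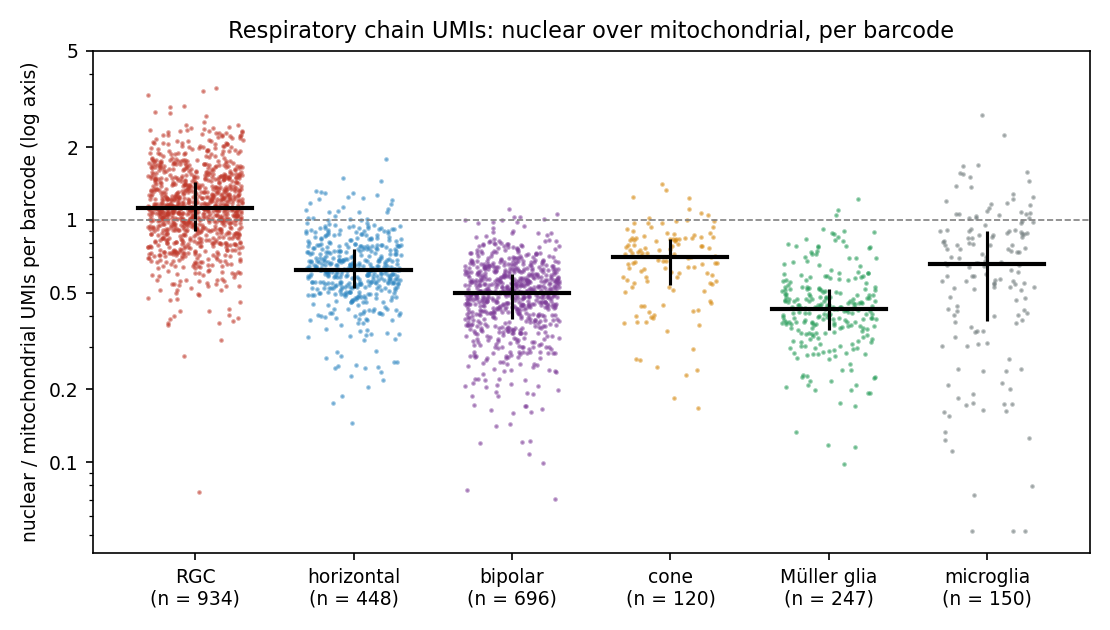
Nuclear over mitochondrial respiratory chain UMIs in each barcode, on a log axis, by class. Points are barcodes, horizontal bars are medians, vertical bars span the quartiles and the dashed line marks equal numbers. RGC barcodes centre at 1.12, above the line, and the other classes centre between 0.429 and 0.703.

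Filters on the mitochondrial share are common in single-cell work, and they would remove these classes unequally. A share of 10% or more was found in 2 RGC barcodes (0.214%), against 41 horizontal (9.15%), 345 bipolar (49.6%), 22 cone (18.3%), 26 Müller glia (10.5%) and 9 microglia barcodes (6%). A share of 5% or more was found in 200 RGC barcodes (21.4%), against 414 horizontal (92.4%), 687 bipolar (98.7%), 112 cone (93.3%), 214 Müller glia (86.6%) and 30 microglia barcodes (20%). In bipolar barcodes at 10% or more, the nuclear genes took 5.48% of the UMIs that are not mitochondrial, against 5.40% in those between 5% and 10%. In horizontal barcodes the same share was 4.53%, against 4.81%, and in RGC barcodes it was 4.57% between 5% and 10%, against 4.86% under 5%. Since the share itself enters the ratio, barcodes under 5% gave a ratio of 1.30 in RGC, 1.09 in horizontal, 0.925 in bipolar, 1.14 in cone and 0.758 in Müller glia barcodes. Within that range the RGC ratio was still above each of the others, by 1.20-fold over horizontal, 1.41-fold over bipolar, 1.15-fold over cone and 1.72-fold over Müller glia barcodes, where 34, 9, 8 and 33 barcodes remained. Depth also differed between the classes; among barcodes of 5000 to 15000 UMIs the RGC ratio was 1.70-fold, 2.15-fold, 1.52-fold and 2.46-fold higher, in the same order of classes.

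Among the mitochondrial genes, none was called higher in RGC barcodes in any of the 4 comparisons. A call here means a CPM ratio of 1.5 or more either way between 2 summed classes, for features with 100 or more UMIs over both. It takes no account of the interval, which may include 1. All 13 genes met that minimum, and 7 were called lower in RGC than in horizontal, 11 than in bipolar, 10 than in cone and 12 than in Müller glia barcodes. With barcodes under a mitochondrial share of 5% only, mt-Atp8 had a ratio of 3.69 over bipolar and mt-Nd6 one of 1.76 over Müller glia barcodes. Over all features tested, 18% were called lower in RGC against horizontal, 22.4% against bipolar, 20% against cone and 21.3% against Müller glia barcodes. The median log2 ratio of the 13 genes was -0.67 against horizontal, -1.25 against bipolar, -0.99 against cone and -1.02 against Müller glia barcodes, where the median of all features tested was 0.12, 0.12, 0.28 and 0.35.

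The mitochondrial genes of the different complexes did not differ by the same factor. The 3 catalytic core subunits of complex IV (cytochrome c oxidase, which hands electrons to oxygen) summed to 13977 CPM in RGC barcodes, against 28656 in horizontal, 45580 in bipolar, 34805 in cone and 23312 CPM in Müller glia barcodes. mt-Cytb, the mitochondrial subunit of complex III, had 3858 CPM in RGC barcodes, against 7395 in horizontal, 13287 in bipolar, 10655 in cone and 8344 CPM in Müller glia barcodes. The 7 membrane-arm subunits of complex I summed to 12705 CPM in RGC barcodes, against 16881 in horizontal, 23074 in bipolar, 17692 in cone and 20951 CPM in Müller glia barcodes. In the 3 neuronal comparisons the summed RGC level was thus nearer to that of the other class for complex I (ratios 0.75, 0.55 and 0.72) than for complex IV (0.49, 0.31 and 0.40). This did not hold for every complex I gene, whose lowest single ratios were 0.52, 0.31 and 0.39. The complex I sum leans on mt-Nd1, with 20.7% of all mitochondrial UMIs in RGC barcodes, where mt-Nd4, the next of the 7, had 5.17%. Sums without mt-Nd1 were not taken.

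mt-Nd1, a core subunit of complex I next to the quinone site, took a larger share of the mitochondrial UMIs in RGC barcodes than in the other 5 classes. It made up 20.7% of mitochondrial UMIs in RGC barcodes, against 15.0% in horizontal, 10.9% in bipolar, 10.2% in cone, 15.1% in Müller glia and 15.0% in microglia barcodes. The quartiles of this share across barcodes were 18.9% and 22.7% in RGC, against 13.7% and 16.1% in horizontal, 9.23% and 11.4% in bipolar, 7.92% and 11.0% in cone and 13.1% and 16.5% in Müller glia barcodes, so the range between the quartiles of each did not overlap with that of RGC barcodes. Its CPM was 8466 in RGC barcodes, against 8510 in cone barcodes, a ratio of 0.995 (interval 0.966 to 1.03), whereas mt-Co1, the catalytic subunit of complex IV, had a ratio of 0.389 between the same classes. The mt-Nd1 share was much the same in RGC barcodes of low and high mitochondrial share, at 20.8% under a mitochondrial share of 5% and 20.5% between 5% and 10%.

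**Figure D3:**
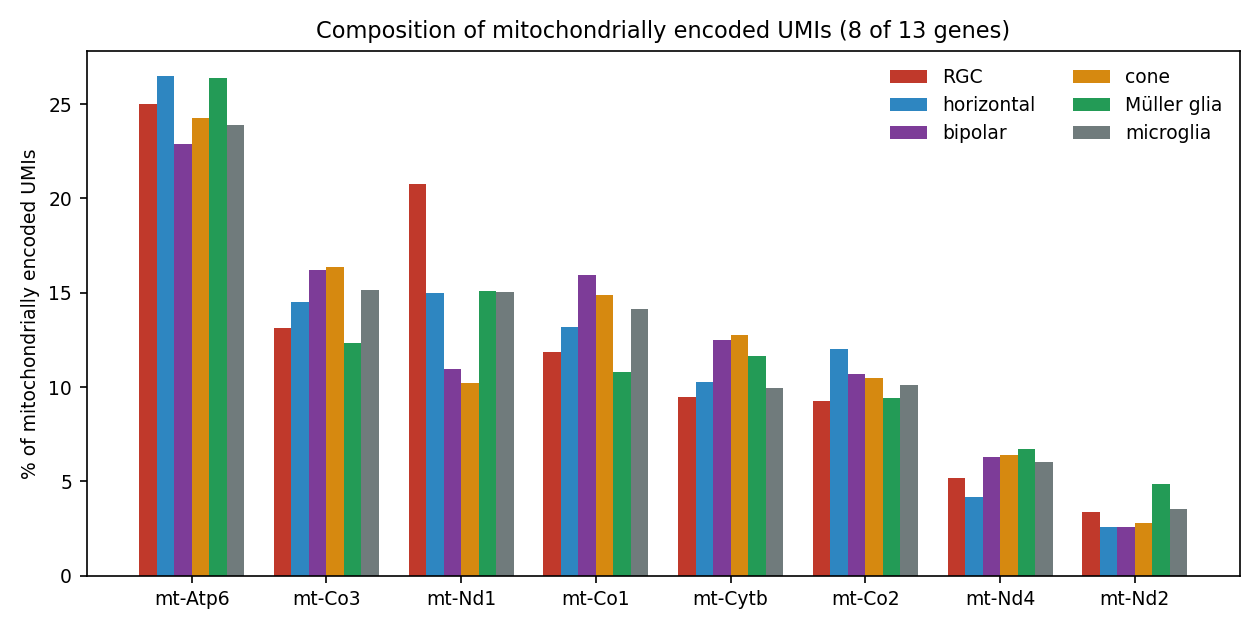
Share of the mitochondrially encoded UMIs of a class taken by each of the 8 genes with the highest mean share, in percent, with 1 bar per class. The RGC bar is the tallest for mt-Nd1 at 20.7% and the lowest for mt-Cytb at 9.45%. For mt-Co1 it stands at 11.8%, with only the Müller glia bar lower.

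Across the 13 genes, the RGC ratio ranged between 0.435 for mt-Co2 and 0.807 for mt-Nd5 against horizontal barcodes, and between 0.285 for mt-Co1 and 0.955 for mt-Nd6 against bipolar barcodes. Against cone barcodes it ranged between 0.362 for mt-Cytb and 1.07 for mt-Nd6 (interval 0.448 to 3.33). Against Müller glia barcodes it was lowest for mt-Nd5 and mt-Nd6, at 0.382 each, and highest for mt-Nd1 at 0.785. mt-Nd6, the only one of the 13 on the opposite strand, was scarce, with 10.3 CPM in RGC barcodes. In the annotation mt-Atp8 shares 43 bases with mt-Atp6, mt-Nd4l shares 7 with mt-Nd4 and mt-Nd5 shares 14 with mt-Nd6, so the values of such neighbours may not be separate, and how the counting treated them is not given in the sources used here.

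Of the 96 nuclear members, 94 were assigned to a complex: 83 subunits or their paralogs and 11 assembly factors. Atp5s and Atp5sl were given no complex. Summed subunits differed by less than 1.5-fold between RGC barcodes and each other neuronal class. The 36 nuclear subunits of complex I summed to 15654 CPM in RGC, against 14875 in horizontal, 15136 in bipolar, 15639 in cone, 10013 in Müller glia and 5341 CPM in microglia barcodes. The 4 subunits of complex II (succinate dehydrogenase, which is also an enzyme of the citric acid cycle) summed to 607 CPM in RGC, against 688 in horizontal, 765 in bipolar, 642 in cone and 438 CPM in Müller glia barcodes. The 8 nuclear subunits of complex III summed to 4408 CPM in RGC, against 3832 in horizontal, 4675 in bipolar, 4621 in cone and 2926 CPM in Müller glia barcodes. For complex IV (20 subunits and paralogs) the sum was 14484 CPM in RGC, against 13939 in horizontal, 15516 in bipolar, 16196 in cone and 9204 CPM in Müller glia barcodes. For complex V (15 subunits) it was 10014 CPM in RGC, against 10387 in horizontal, 11522 in bipolar, 12064 in cone and 5939 CPM in Müller glia barcodes. Against the other neurons the 5 sums had ratios between 0.79 and 1.15. Scaling by UMIs that are not mitochondrial gave 0.96 for complex I against bipolar barcodes, in place of 1.03, and 0.96 against cone barcodes, in place of 1.00. On that scale all 5 sums were lower in RGC than in bipolar (ratios 0.74 to 0.96) and cone barcodes (0.79 to 0.96). Against horizontal barcodes they ran from 0.85 to 1.11. Against Müller glia barcodes all 5 were higher in RGC barcodes on both scales, by 1.39-fold to 1.69-fold over all UMIs. Genes of the mitochondrial ribosome, which makes the mitochondrially encoded subunits, summed to 8475 CPM in RGC, against 8043 in horizontal, 7825 in bipolar, 8271 in cone and 6476 CPM in Müller glia barcodes.

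Few single nuclear members passed 1.5-fold in the 3 neuronal comparisons. All 4 comparisons share the same RGC barcodes. The shares of all features given here were not matched to the members for UMI level. Of the 91 nuclear members that met the UMI minimum, 11 were called higher and 5 lower in RGC than in horizontal barcodes, where 27.9% and 18% of 10354 features were, 45.9% either way. Against bipolar barcodes 12 were higher and 9 lower, where 33.4% and 22.4% of 10288 features were, 55.8% either way. Against cone barcodes 7 were higher and 14 lower, where 39.8% and 20% of 9845 features were, 59.8% either way. Scaled to UMIs that are not mitochondrial, which moves every log2 ratio against bipolar barcodes by -0.10, the bipolar counts became 7 higher and 12 lower. Against Müller glia barcodes 59 were higher and 3 lower, where 41.8% and 21.3% of 10110 features were, 63.2% either way. The median log2 ratio of the nuclear members was 0.10 against horizontal, 0.05 against bipolar, 0.02 against cone and 0.84 against Müller glia barcodes, beside the medians for all features given above. The 59 included 25 of 36 complex I, 1 of 4 complex II, 6 of 8 complex III, 10 of 15 complex IV and 10 of 15 complex V subunits.

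**Figure D4:**
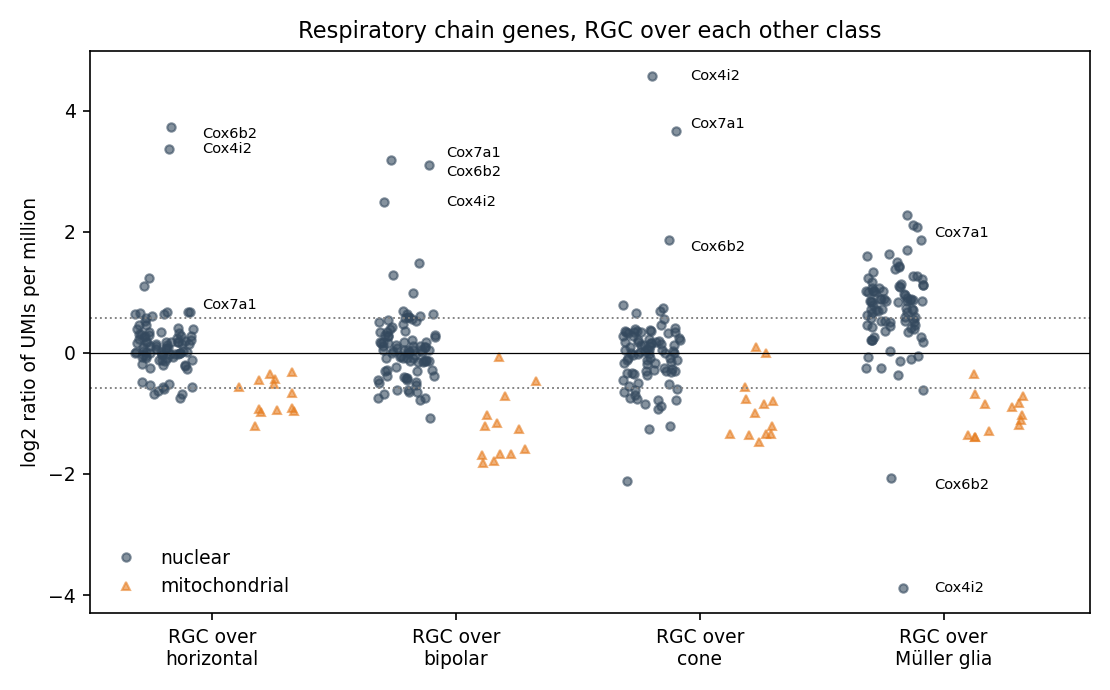
log2 ratio of CPM, RGC over each other class, for every member with 100 or more UMIs over both classes. Circles are nuclear and triangles mitochondrially encoded genes, dotted lines mark 1.5-fold either way, and labels stand beside Cox4i2, Cox6b2 and Cox7a1. Nuclear genes centre near 0 against the 3 neuronal classes (medians 0.10, 0.05 and 0.02) and at 0.84 against Müller glia, while the median of the mitochondrial genes lies between -1.25 and -0.67.

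The 3 nuclear members with the highest ratios against bipolar and against cone barcodes were alternative forms of complex IV subunits, and Cox6b2 and Cox4i2 also led against horizontal barcodes. Cox4i2 (chr2:152754173-152765037) encodes the second form of COX4, best known from lung, beside the widespread Cox4i1. Cox6b2 (chr7:4751792-4753094) encodes the form of COX6B best known from testis, beside Cox6b1, and Cox7a1 (chr7:30184144-30186078) encodes the heart and skeletal muscle form of COX7A, beside Cox7a2. Positions are those of GENCODE M21 on GRCm38, the build called mm10. The promoters of both COX6B genes and of Cox7a1 and Cox7a2 are shown here, from RefSeq on GRCm38.p6, to set the restricted form of each pair beside the widespread one. They run 5′ to 3′ from 250 bases before the annotated start to 50 after it, with capitals for the matches on either strand to a GC box (GGGCGG), an ETS core (CCGGAA) or a CCAAT box (CCAAT). No match to the core of the NRF1 motif (TGCGCA) lay in these 4 windows. The Cox6b2 window is chr7:4753045-4753344 on the minus strand, Cox6b1 chr7:30626065-30626364 on the minus strand, Cox7a1 chr7:30183921-30184220 on the plus strand and Cox7a2 chr9:79759804-79760103 on the minus strand. Cox6b2 held 3 CCAAT boxes and 1 GC box, and Cox6b1 3 CCAAT boxes and 1 ETS core. Cox7a1 held 2 CCAAT boxes, and Cox7a2 held 1 ETS core and 1 GC box.
Cox6b2: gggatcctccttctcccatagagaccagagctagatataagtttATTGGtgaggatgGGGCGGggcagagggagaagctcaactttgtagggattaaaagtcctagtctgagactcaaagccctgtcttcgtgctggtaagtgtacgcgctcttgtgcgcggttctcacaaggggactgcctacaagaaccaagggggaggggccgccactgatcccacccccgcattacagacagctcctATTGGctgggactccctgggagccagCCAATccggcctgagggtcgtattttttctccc
Cox6b1: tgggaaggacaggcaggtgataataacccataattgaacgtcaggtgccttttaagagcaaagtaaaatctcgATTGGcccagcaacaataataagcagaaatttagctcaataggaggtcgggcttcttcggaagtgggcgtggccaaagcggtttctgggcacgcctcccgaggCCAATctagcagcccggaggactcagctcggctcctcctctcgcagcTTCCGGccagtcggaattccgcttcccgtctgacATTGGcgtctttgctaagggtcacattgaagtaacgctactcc
Cox7a1: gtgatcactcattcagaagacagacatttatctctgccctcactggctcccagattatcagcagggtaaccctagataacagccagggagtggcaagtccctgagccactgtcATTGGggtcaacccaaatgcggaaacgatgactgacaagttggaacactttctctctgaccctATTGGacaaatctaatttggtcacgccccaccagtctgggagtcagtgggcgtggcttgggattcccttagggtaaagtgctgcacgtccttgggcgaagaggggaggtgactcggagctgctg
Cox7a2: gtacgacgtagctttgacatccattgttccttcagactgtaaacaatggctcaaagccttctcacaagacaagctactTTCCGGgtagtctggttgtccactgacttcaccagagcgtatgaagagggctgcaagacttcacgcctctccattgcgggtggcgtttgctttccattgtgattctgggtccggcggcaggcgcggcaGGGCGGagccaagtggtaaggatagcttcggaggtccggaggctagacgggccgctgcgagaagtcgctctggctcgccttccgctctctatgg
A promoter was listed for 77 of the 96 nuclear members. The NRF1 core was found in 26.0% of their first listed promoters, against 7.76% of the 32851 promoters of all genes, and the ETS core in 37.7% against 14.9%. Here and below, each member gives 1 promoter, whereas the 32851 are all listed promoters and not only the first of each gene. What part this has in the shares was not tested. The GC box was found in 46.8% against 35.7%, and the CCAAT box in 42.9% against 37.4%. The median GC content was 58.3% in the promoters of members, against 52.7% in all promoters, and its part in these shares was not tested. Each motif was counted on its own, so that matches to different motifs may overlap, and a match is not shown to be a binding site.

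Cox4i2 had 91.3 CPM in RGC barcodes (interval 86.6 to 96.1), against 8.86 in horizontal, 16.1 in bipolar and 3.84 CPM in cone barcodes, and against 1341 CPM in Müller glia barcodes. It was thus 10.3-fold higher in RGC than in horizontal barcodes (interval 7.64 to 14.2), 5.66-fold higher than in bipolar barcodes and 23.7-fold higher than in cone barcodes (6.56 to 196, from 2 UMIs in cones). It was 14.7-fold lower in RGC than in Müller glia barcodes (13.7 to 15.8). Cox4i2 gave 4.61% of the UMIs of both COX4 genes in RGC barcodes, against 0.462% in horizontal, 0.872% in bipolar, 0.21% in cone, 51.5% in Müller glia and 1.13% in microglia barcodes. In Müller glia 246 of 247 barcodes held a Cox4i2 UMI, with a median of 6, the same median as for Cox4i1.

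With each barcode thinned to 3000 UMIs, 20.9% of RGC barcodes had a Cox4i2 UMI (18.3% to 23.6%), against 2.68% of horizontal, 3.30% of bipolar, 1.67% of cone, 3.33% of microglia and 95.95% of Müller glia barcodes. Without thinning, the shares were 58.0% in RGC, 8.71% in horizontal, 5.46% in bipolar and 99.6% in Müller glia barcodes. The spread within RGC barcodes was wide, with a median of 1 UMI and a highest value of 28, and the highest barcode held 1.94% of all Cox4i2 UMIs of the class. The 5 Müller glia markers summed to 286 CPM in RGC barcodes and 238 CPM in horizontal barcodes, none of them at 0 in either. Among them Dkk3 had 93.4 CPM in RGC, against 32.6 CPM in horizontal barcodes. In the 59 RGC barcodes with 0 UMIs of 6 Müller glia genes, Cox4i2 stood at 80.3 CPM (60.7 to 104), against 91.8 CPM in the other 875. What part RNA of Müller glia has in the Cox4i2 UMIs of RGC barcodes was not tested.

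Cox6b2 likewise lay below Müller glia and above the other neurons in RGC barcodes. It had 56.2 CPM in RGC barcodes, against 4.23 in horizontal, 6.57 in bipolar, 15.4 in cone and 237 CPM in Müller glia barcodes. The RGC level was 13.3-fold higher than the horizontal (interval 8.65 to 21.6), 8.56-fold higher than the bipolar and 3.66-fold higher than the cone level (1.85 to 8.50), and 4.21-fold lower than that of Müller glia. Under a mitochondrial share of 5%, with 8 cone barcodes, the ratio over cone barcodes was 0.989. Of the UMIs of both COX6B genes it gave 5.97% in RGC, against 0.587% in horizontal, 0.761% in bipolar, 1.77% in cone and 26.6% in Müller glia barcodes. At 3000 UMIs, 14.8% of RGC barcodes had a Cox6b2 UMI, against 2.23% of horizontal, 1.72% of bipolar, 5.83% of cone and 54.3% of Müller glia barcodes.

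Cox7a1 was the only one of the 109 members called higher in RGC barcodes in all 4 comparisons. In single comparisons between 27.9% and 41.8% of all features were called higher, and the share called so in all 4 was not counted. Cox7a1 had 48.8 CPM in RGC barcodes, against 30.4 in horizontal, 5.37 in bipolar, 3.84 in cone and 13.4 CPM in Müller glia barcodes. The ratio was 1.60 over horizontal (1.35 to 1.92), 9.08 over bipolar, 12.7 over cone (3.50 to 105, from 2 UMIs in cones) and 3.63 over Müller glia barcodes. Under a mitochondrial share of 5% the ratio over horizontal barcodes was 0.888. Among the 3 COX7A genes it had the fewest UMIs, with 2.70% of UMIs in RGC, 2.01% in horizontal and 0.347% in bipolar barcodes. Cox7a2l, a factor of supercomplex assembly related to COX7A, had 679 CPM in RGC barcodes, against 428 in horizontal barcodes, a ratio of 1.59. Of the RGC barcodes, 132 held no UMI of Cox4i2, Cox6b2 or Cox7a1, 328 held 1 of the 3 genes, 328 held 2 and 146 held all 3. These counts are without thinning, and the part of depth in them was not tested.

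The widespread partner forms differed less. Cox4i1, the nuclear member with the most UMIs, had 1888 CPM in RGC, against 1906 in horizontal, 1833 in bipolar, 1824 in cone and 1265 CPM in Müller glia barcodes. Cox6b1 had 886 CPM in RGC, against 716 in horizontal, 857 in bipolar, 852 in cone and 653 CPM in Müller glia barcodes. The remaining alternative forms were scarce over all barcodes: Cox6a2 and Cox7b2 had 32 UMIs each, with 11 of Cox6a2 in microglia and 27 of Cox7b2 in RGC barcodes. Cox8b had 9 UMIs and Cox8c, a testis form of COX8, none, which allows up to 3 UMIs in the whole table. Ndufa4l2, a paralog of Ndufa4, had 110 UMIs, with 19 in RGC and 29 in Müller glia barcodes.

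**Figure D5:**
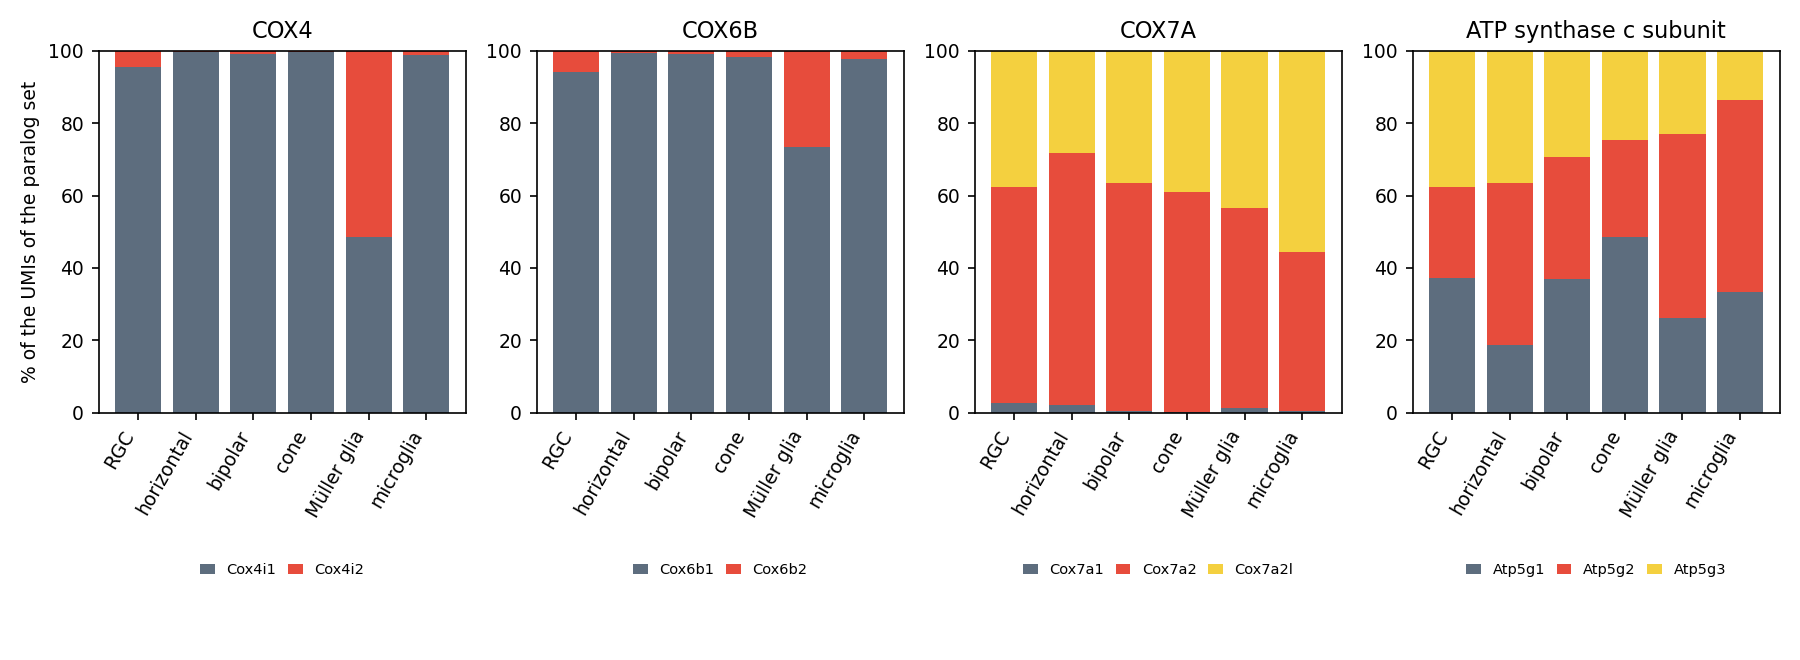
Share of the summed UMIs of each paralog set taken by each gene, in percent, by class, for COX4, COX6B, COX7A and the c subunit of ATP synthase. Cox4i2 takes 4.61% in RGC and 51.5% in Müller glia barcodes, Cox6b2 takes 5.97% and 26.6%, and Atp5g1 takes 37.3% in RGC and 18.6% in horizontal barcodes.

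The c subunit of ATP synthase, the rotor ring through which protons pass, is made from 3 genes whose mature proteins are the same. Atp5g1 had 679 CPM in RGC, against 316 in horizontal, 755 in bipolar, 1165 in cone and 252 CPM in Müller glia barcodes. Atp5g2 had 454 CPM in RGC, against 761 in horizontal, 690 in bipolar, 638 in cone and 488 CPM in Müller glia barcodes. Atp5g3 had 687 CPM in RGC, against 623 in horizontal, 605 in bipolar, 590 in cone and 221 CPM in Müller glia barcodes. Of the UMIs of the set, Atp5g2 thus gave 24.9% in RGC, against 44.8% in horizontal, 33.7% in bipolar, 26.7% in cone and 50.8% in Müller glia barcodes.

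Cox8a and Ndufa4, the nuclear members with the most UMIs after Cox4i1, were lower in RGC barcodes than in bipolar and cone barcodes. Ndufa4, once assigned to complex I and now counted with complex IV, had 1634 CPM in RGC, against 1045 in horizontal, 3448 in bipolar, 2547 in cone and 611 CPM in Müller glia barcodes. It was 2.11-fold lower than in bipolar barcodes (2.06 to 2.16) and 1.56-fold higher than in horizontal barcodes (1.52 to 1.61). Cox8a, the widespread form of COX8, had 1526 CPM in RGC, against 1649 in horizontal, 2614 in bipolar, 3539 in cone and 1137 CPM in Müller glia barcodes. Cox5a, a subunit on the matrix side of complex IV, had 896 CPM in RGC, against 1257 in horizontal, 619 in bipolar, 803 in cone and 213 CPM in Müller glia barcodes, and was 4.21-fold higher in RGC than in Müller glia barcodes. Cox7b was 1.62-fold higher in RGC than in bipolar barcodes.

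Among complex I genes, Ndufaf5 had the highest ratio against horizontal and Müller glia barcodes and the lowest against cone barcodes. This assembly factor, which modifies the core subunit NDUFS7 during assembly, had 81.0 CPM in RGC, against 34.4 in horizontal, 40.9 in bipolar, 352 in cone and 16.8 CPM in Müller glia barcodes. It was 2.35-fold higher than in horizontal barcodes (interval 2.00 to 2.77) and 4.35-fold lower than in cone barcodes (3.70 to 5.08). Ndufaf2 had 88.0 CPM in RGC, against 31.3 CPM in bipolar barcodes, and Ndufaf4 had 120 CPM in RGC, against 36.9 CPM in Müller glia barcodes. Of the subunits, Ndufa6 was 1.56-fold higher in RGC than in bipolar, 1.72-fold higher than in cone and 2.17-fold higher than in Müller glia barcodes. Ndufb11, a membrane-arm subunit, had 367 CPM in RGC, against 873 CPM in cone barcodes. Ndufv3 was 1.68-fold lower in RGC than in bipolar barcodes, and Ndufa10 was 1.54-fold lower and Ndufc1 1.51-fold lower in RGC than in horizontal barcodes.

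The genes of complex II did not move together. Sdha, the flavoprotein that oxidises succinate, had 168 CPM in RGC, against 248 in horizontal, 281 in bipolar and 246 CPM in cone barcodes, and 123 CPM in Müller glia barcodes. Sdhb, its iron-sulphur partner, had 272 CPM in RGC, against 223 in horizontal, 240 in bipolar, 163 in cone and 181 CPM in Müller glia barcodes. In RGC barcodes Sdha was thus below and Sdhb above the 3 other neuronal classes, and both were above Müller glia barcodes. Sdhaf1, which helps to load iron-sulphur clusters into SDHB, had 92.4 CPM in RGC, against 148 in horizontal, 148 in bipolar and 169 CPM in cone barcodes. It was the only nuclear member called lower in RGC barcodes in 3 comparisons, and the share of all features called so was not counted. Under a mitochondrial share of 5%, with 9 bipolar barcodes, its ratio over bipolar barcodes was 1.52. Sdhaf2, needed for the flavin of SDHA, had 32.5 CPM in RGC, against 49.5 CPM in Müller glia barcodes. Atp5sl had 47.2 CPM in RGC, against 29.4 in horizontal, 19.4 in bipolar, 49.98 in cone and 10.9 CPM in Müller glia barcodes, and Atp5e, a small subunit of the ATP synthase stalk, had 580 CPM in RGC, against 924 CPM in horizontal barcodes.

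Some members changed side between comparisons. The share of all features that did so, or that were called in several comparisons, was not counted. The counts here are therefore not read as a trait of the members. In single comparisons, between 45.9% and 63.2% of all features tested were called either way. Of the 96 nuclear members, 12 were called higher in RGC barcodes in one comparison and lower in another, among them Cox4i2, Cox6b2, Ndufa4, Atp5g1 and Ndufaf5. After Cox7a1, Atp5sl, Cox4i2, Cox6b2, Ndufa6 and Ndufaf5 were called higher in 3 comparisons each. No nuclear member was called lower in all 4, whereas 6 mitochondrial genes were: mt-Co1, mt-Co2, mt-Co3, mt-Cytb, mt-Atp6 and mt-Nd3.

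RGC barcodes also differed among themselves, in groups set by 1 gene each. In the 27 RGC barcodes with 5 or more UMIs of Spp1, which encodes osteopontin and marks alpha RGCs, the nuclear-to-mitochondrial ratio was 1.75, against 1.11 in the other 907. Mitochondrial genes took 3.00% of UMIs there, against 4.13%, and nuclear members 5.24%, against 4.58%. In the 63 RGC barcodes with 3 or more UMIs of Opn4, the photopigment melanopsin, the ratio was 1.48, against 1.11 in the other 871. It was 1.24, against 1.12, in the 74 with 3 or more UMIs of the transcription factor gene Foxp2. The ratio was 1.15, against 1.12, in the 166 with 20 or more UMIs of Cartpt, and 1.09, against 1.14, in the 181 with 10 or more UMIs of Pvalb. Depth moved with some of these groups, with medians of 26487 UMIs in the Spp1 group, against 15573 in the other RGC barcodes, and its part was not tested.

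The alternative complex IV forms differed between some of these groups. Cox4i2 had 42.9 CPM in the Spp1 group, against 93.7 CPM in the other RGC barcodes, and 36.8 CPM in the Opn4 group, against 95.97 CPM. In the Foxp2 group it had 42.9 CPM, against 95.4 CPM, and in the Cartpt group 115 CPM, against 84.8 CPM. In the Pvalb group it had 82.0 CPM, against 94.5 CPM. Cox6b2 had 24.1 CPM, against 57.8 CPM, for Spp1 and 24.0 CPM, against 59.0 CPM, for Opn4. It had 67.2 CPM, against 55.3 CPM, for Foxp2, 57.1 CPM, against 56.02 CPM, for Cartpt and 47.2 CPM, against 59.4 CPM, for Pvalb. Cox7a1 ran opposite to Cox4i2 in the Spp1 and Opn4 groups, with 92.4 CPM, against 46.6 CPM, for Spp1 and 68.7 CPM, against 47.1 CPM, for Opn4. It had 38.1 CPM, against 49.7 CPM, for Foxp2, 46.9 CPM, against 49.3 CPM, for Cartpt and 32.4 CPM, against 54.4 CPM, for Pvalb. The Spp1 values rest on 32 Cox4i2 and 69 Cox7a1 UMIs.

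Genes that act with the respiratory chain but lie outside the prefixes were counted from lists. Of 27 further assembly factors, 6 were called higher and 2 lower in RGC than in horizontal barcodes, 5 and 3 than in bipolar, 6 and 3 than in cone, and 17 and 1 than in Müller glia barcodes. Of all features tested, 27.9% were called higher and 18% lower in RGC than in horizontal, 33.4% and 22.4% than in bipolar, 39.8% and 20% than in cone, and 41.8% and 21.3% than in Müller glia barcodes, and the counts for these lists stand beside those shares. Some calls rest on few UMIs, with an assembly factor called higher over cone barcodes from 4 cone UMIs. Uqcc2, an assembly factor of complex III, had 721 CPM in RGC, against 458 in horizontal, 464 in bipolar, 325 in cone and 467 CPM in Müller glia barcodes. Cox20, a chaperone of the subunit encoded by mt-Co2, had 114 CPM in RGC, against 269 in horizontal, 266 in bipolar, 179 in cone and 149 CPM in Müller glia barcodes. Of the 7 carriers and partners, 1 was called higher and none lower in RGC than in horizontal barcodes, 2 and 1 than in bipolar, 3 and 1 than in cone, and 4 and 2 than in Müller glia barcodes. Atpif1, the inhibitor of ATP hydrolysis by ATP synthase, had 1221 CPM in RGC, against 442 in horizontal, 585 in bipolar, 440 in cone and 336 CPM in Müller glia barcodes. Cycs, the electron carrier cytochrome c, had 708 CPM in RGC, against 525 in horizontal, 389 in bipolar, 444 in cone and 127 CPM in Müller glia barcodes.

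The smaller lists are read beside the same shares of all features, between 27.9% and 41.8% higher and between 18% and 22.4% lower. Of 7 regulators of mitochondrial biogenesis that met the minimum, 1 was called higher and 4 lower in RGC than in horizontal barcodes, 1 and 3 than in bipolar, 1 and 2 than in cone, and 4 and 2 than in Müller glia barcodes. Ppargc1a, which encodes the coactivator PGC-1α, had 48.4 CPM in RGC, against 3.82 in horizontal, 6.87 in bipolar, 53.8 in cone and 9.23 CPM in Müller glia barcodes. Its ratio was 12.7 over horizontal barcodes (interval 8.05 to 21.1) and 0.899 over cone barcodes (0.617 to 1.36). Ppargc1a was the only one of the 7 called higher against horizontal and against bipolar barcodes, where 4 and 3 of the others were called lower. Esrrg, a nuclear receptor that works with it, had 19.8 CPM in RGC, against 175 in horizontal, 14.0 in bipolar, 42.3 in cone and 2.52 CPM in Müller glia barcodes. Genes that maintain or transcribe mitochondrial DNA were called higher and lower in RGC barcodes in 0 and 1 of 10 cases against horizontal, 1 and 4 of 11 against bipolar, 3 and 3 of 9 against cone, and 2 and 1 of 9 against Müller glia barcodes. The 3 higher calls against cone barcodes rest on 1, 7 and 5 cone UMIs, and all their intervals include 1. So does the interval of a lower call there, and that of a higher call against Müller glia barcodes, from 5 UMIs in Müller glia. Tfam, which packages and transcribes mitochondrial DNA, had 30.8 CPM in RGC, against 65.6 in horizontal, 24.5 in bipolar, 26.9 in cone and 38.6 CPM in Müller glia barcodes. Polg, the mitochondrial DNA polymerase, had 17.1 CPM in RGC, against 13.5 in horizontal, 23.0 in bipolar, 9.61 in cone and 107 CPM in Müller glia barcodes.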

How the data were processed

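Single-cell RNA was measured in GFP-sorted retinal cells of 4 retinas with 10x Chromium 3′ V2 libraries, per the labels. The table the authors deposited holds raw counts, that is the UMIs of each gene in each barcode, not normalized. Cell Ranger, Seurat 2.2 and mm10 are named in the submitters' processing notes; which of these tools wrote the table, and how cells were told from empty droplets, is not given in the sources used here. Every barcode was kept.

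Classes were set on raw UMIs. RGC barcodes needed Slc17a6 of 1 or more, Rbpms plus Slc17a6 of 3 or more and Lhx1 of 1 or less, and horizontal barcodes Lhx1 of 2 or more and no Slc17a6. Bipolar barcodes needed Trpm1 of 2 or more and Pcp2 of 3 or more, cone barcodes Arr3 of 2 or more and Pde6h plus Gngt2 of 3 or more. Müller glia barcodes needed Rlbp1 of 2 or more and Glul plus Slc1a3 of 4 or more, and microglia barcodes 6 or more UMIs of the C1q genes. The last 3 classes also excluded Slc17a6 and higher Lhx1 or Trpm1. Deeper barcodes meet such minimums more easily. Scrublet, in scanpy 1.11.5, called 58 of 3237 barcodes doublets (1.79%), which were kept except in an alternative.

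UMIs were summed per class and scaled to 1000000 (CPM). Intervals are exact Poisson, Clopper-Pearson or conditional binomial at 95%. Named genes were all mitochondrial members, the paralog sets, the 5 highest and lowest nuclear ratios of each comparison, the 10 nuclear members with most UMIs and called genes of the other lists; those printed with values among the last were chosen after their values were seen. A gene that this rule named is not reported here. Members, lists and class rules were chosen with earlier results of these data known. Alternatives changed the class minimums, mitochondrial filter, depth, weighting, scaling, UMI minimum, doublets and members. The CPM ratio of single genes, RGC over horizontal, and its interval were tested on simulated counts. These were drawn without spread between barcodes or retinas, so that test covers counting error only. The nuclear-to-mitochondrial ratio was not simulated. The software was matplotlib 3.10.9, pandas 2.3.3, scipy 1.17.1 and numpy 2.4.6 under Python 3.11.15.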

Additional observations from a re-analysis of the deposited data

How the results depend on the processing

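The nuclear-to-mitochondrial ratio was higher in RGC barcodes in all 4 comparisons under all 9 alternatives that bear on it. Against horizontal, bipolar, cone and Müller glia barcodes in that order, it was 1.69, 1.87, 1.54 and 2.48 with a mitochondrial share under 10%, and 1.20, 1.41, 1.15 and 1.72 under 5%. It was 1.79, 2.39, 1.78 and 2.68 with barcodes thinned to 3000 UMIs, and 1.81, 2.41, 1.81 and 2.70 with barcodes weighted equally. Doubled minimums in the class rules gave 1.78 against horizontal, 2.51 against bipolar and 2.83 against Müller glia barcodes. Among barcodes of 5000 to 15000 UMIs, an alternative chosen after seeing the data, it was 1.70, 2.15, 1.52 and 2.46. The mitochondrial filters act on a part of the ratio itself, and under 5% they left 34, 9, 8 and 33 barcodes; otherwise the cause of these moves was not tested. Counts of nuclear members called either way stayed within 1.5 times their value (16, 21, 21 and 62) in every alternative. Their split moved most under 5%, with 24 higher and 3 lower against bipolar and 14 higher and 12 lower against cone barcodes. Among 1757 values of named genes under alternatives, 1343 moved by less than their counting interval, 407 by more and 7 changed direction, all 7 under 5%. Against horizontal barcodes these were mt-Nd6 at 1.06 and Cox7a1 at 0.888, and against bipolar barcodes mt-Atp8 at 3.69 and Sdhaf1 at 1.52. Against cone barcodes they were mt-Nd3 at 1.04 and Cox6b2 at 0.989, and against Müller glia barcodes mt-Nd6 at 1.76. No paired analysis was possible because no barcode carries a retina number, and leaving out each retina in turn could not be run for the same reason.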

Other observations

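The 612 barcodes that met no class rule had a nuclear-to-mitochondrial ratio of 0.628, with quartiles of 0.504 and 1.08 across barcodes. Nuclear UMIs outnumbered mitochondrial ones in 178 of them (29.1%). Cox4i2 gave 3.21% of the COX4 UMIs in these barcodes and Cox6b2 3.65% of the COX6B UMIs. They also held 58 of the 110 UMIs of Ndufa4l2 and 8 of the 9 UMIs of Cox8b. The 30 barcodes that met more than 1 rule had a ratio of 0.719, and Scrublet called 21 of them doublets.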
